A study of Caenorhabditis elegans with 63 samples.

Results

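Adult Caenorhabditis elegans that carried drsh-1::gfp and tdp-1::mScarlet, 2 fluorescently tagged genes, were compared with wild type Adults by small RNA sequencing. The comparison took 2 tagged libraries and 3 wild type libraries, chosen by genotype, stage and library kit, and these are 5 of the 63 samples of the series. All 276 miRNA arms of the NEBNext count table entered, which are the mature strands of 138 hairpins, and the 10 plant spike-in rows were kept apart. RNA came from whole worms grown at 20 °C. Further Adult groups of the same table were set beside the comparison where a result turned on them. They were drsh-1::gfp;tdp-1::mScarlet worms with drsh-1(null) in the genotype (tagged/null, n = 2), the drsh-1 alleles cdb328 and cdb330 (n = 3 each), and the same wild type Adults (n = 3). Stage lists and shares also drew on L4 larvae, the last larval stage, of cdb328, cdb330 and wild type (n = 3 each).

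Both tagged groups carried both tags, so neither tag was measured alone. The labels do not say whether a tag sits at the gene's own locus, which promoter drives it, how many lines were used or whether the null allele was homozygous. They give no day of adulthood, and they do not say that replicates came from separate cultures, so p-values measure the spread between these libraries. miRNA reads measure neither drsh-1 mRNA nor a tag, so the genotype could not be checked in these data.

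A miRNA is made from a hairpin within a longer primary transcript. Drosha, the nuclear RNase III that drsh-1 encodes, cuts this hairpin out together with its partner Pasha (DGCR8 in mammals). Dicer then cuts off the loop, which leaves a duplex of a main arm and a usually rarer star arm. Star arms are those with * in their deposited names, which do not always mark the rarer arm here. For mir-34, whose 5p arm has the *, the mean log2 ratio of 5p over 3p reads in wild type Adults was 4.67. Mirtrons are an exception, since splicing frees their hairpins without Drosha. tdp-1 encodes the worm relative of TDP-43, a nuclear RNA-binding protein that in human cells associates with Drosha. The comparison asked whether the tags leave miRNA levels as they are in wild type, and above all those of the miRNAs most sensitive to loss of drsh-1 function.

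Tagged libraries held 5224688 and 5565918 miRNA reads, tagged/null libraries 2322033 and 3297455, and wild type Adult libraries 2684194, 2595627 and 2130703. Spike-ins made up 13.3% and 13.9% of miRNA and spike-in reads in tagged Adults, against 30.0%, 29.5% and 33.8% in wild type Adults. Both tagged shares lay below every wild type share. Tagged Adults thus gave 6.50 and 6.18 miRNA reads per spike-in read, and wild type Adults 2.33, 2.38 and 1.96. The ratio was 2.86-fold higher in tagged Adults (exact two-sided permutation test, p = 0.1, the smallest value that 2 libraries against 3 allow, over 10 splits). The tagged/null libraries lay on both sides of a wide gap, with 3.28 and 5.96 miRNA reads per spike-in read.

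The make-up of the spike-ins differed as well, although the same 10 plant RNAs were counted in each library. For 7 of the 10, the share of spike-in reads in tagged Adults did not overlap with that in wild type Adults, nor with that in any of the 18 libraries of wild type, cdb328 and cdb330. For 5 of these the tagged/null libraries lay outside the 18 too. ath-miR166a took 49.3% to 50.9% of the spike-in reads in tagged Adults and 31.4% to 40.1% in wild type Adults. osa-miR171b took 0.149% to 0.151% in tagged Adults and 0.379% to 0.592% in wild type Adults. On the log2 scale the differences of the 10 spike-ins ran from -1.69 for osa-miR171b to 0.51 for ath-miR166a, with a median size of 0.55. The labels name no batch. Whatever sets the spike-ins apart and genotype cannot be told apart for any difference between either tagged group and the 18 libraries. In the make-up of these 5 spike-ins, every tagged and tagged/null library is on one side of the split and all of the 18 are on the other.

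**Figure D1:**
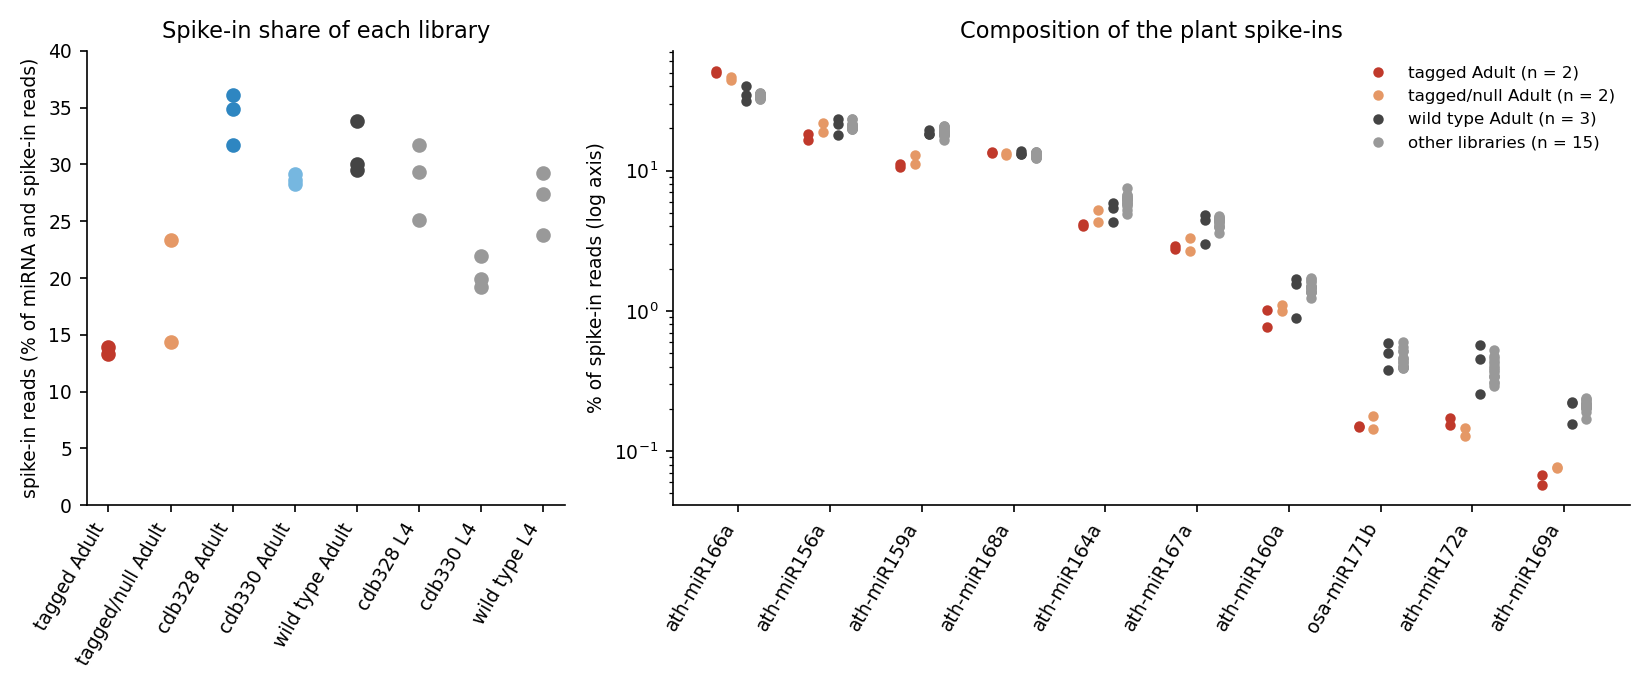
Spike-in reads by library: the left panel shows their percentage of miRNA and spike-in reads in each library of the 8 groups, and the right panel the percentage of spike-in reads that each of the 10 plant RNAs took (log axis). The tagged libraries lie at 13.3% and 13.9% on the left, below the wild type Adults at 29.5% to 33.8%, and on the right 7 of the 10 plant RNAs do not overlap between tagged and wild type Adults.

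Relative to all miRNAs, most arms in tagged Adults were not called different from wild type. The minority that was called included miR-355-5p, miR-70-3p and the miR-238 family (lower) and let-7-5p and miR-58a-3p (higher). Levels are given as TMM-scaled CPM, reads per library brought to one common total after a scaling that sets the bulk of miRNAs equal between libraries, and log2 fold changes are tagged over wild type ± the standard error. Of 215 arms with enough reads for a test, 69 were called in edgeR's quasi-likelihood test at a Benjamini-Hochberg adjusted p below 0.05 (32.1%), 24 of them higher (11.2%) and 45 lower (20.9%). At 2-fold or more, 6 were higher and 13 lower (together 8.84%), and the other 50 called arms differed by less than 2-fold. The tagged and wild type libraries did not overlap for 110 arms (51.2%), 39 higher and 71 lower in tagged Adults, among them 68 of the 69 called. Without tagged replicate 1 the arms called lower numbered 28, and without wild type replicate 2 they numbered 29. The remaining 61 arms of the table had too few reads for the test.

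The median log2 fold change was -0.14 and the median size 0.34. The spike-in differences had a median size of 0.55, but they are ratios of shares of spike-in reads. They were not centred as TMM centres the arms, so these sizes are not directly comparable. The 95% interval of the difference lay within 2-fold either way for 133 of the 215 arms (61.9%), of which 101 were not called. Largest in size was miR-355-5p. With the values taken as they stand, 5 arms differed by more than osa-miR171b, the spike-in with the largest difference in share. How many arms would do so with spike-ins and arms centred alike was not tested. Of the star arms, 8 of 83 were higher and 15 lower (median -0.21), and of the main arms 16 of 132 were higher and 30 lower (median -0.11). On a scale set by the spike-ins, which moved log2 fold changes by a median of 2.05, 200 arms were higher and 2 lower. All directions below are therefore relative to the miRNAs as a whole. In whole worms, fewer cells of a type and less RNA per cell cannot be told apart.

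**Figure D2:**
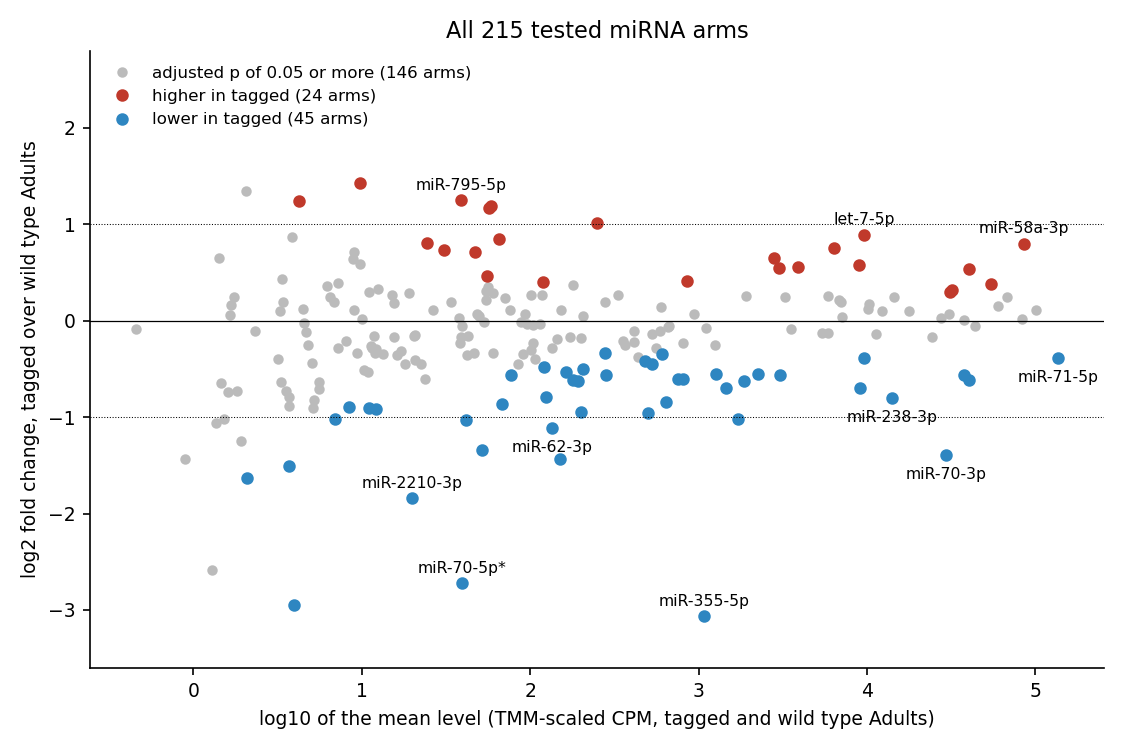
The log2 fold change of each of the 215 tested arms in tagged over wild type Adults (vertical axis) is plotted against log10 of its mean level in TMM-scaled CPM, with the 24 arms called higher in red, the 45 called lower in blue and dotted lines at 2-fold. On the TMM scale most arms lie between the dotted lines at every level, and miR-355-5p stands lowest at -3.06.

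The largest fall was that of miR-355-5p, whose hairpin lies between genes on chromosome II (11833536-11833645, minus strand, WBcel235). It had 236 and 226 CPM in tagged Adults, against 2139, 2036 and 1613 CPM in wild type Adults. All libraries of the other altered genotypes were also below wild type, with 413 and 329 CPM in tagged/null, 694, 667 and 812 CPM in cdb328 and 352, 427 and 472 CPM in cdb330. miR-355-5p was 8.36-fold lower in tagged Adults (log2 -3.06 ± 0.16, edgeR adjusted p = 3.41e-14), and its log2 fold change against the same wild type libraries was -2.38 in tagged/null, -1.41 in cdb328 and -2.21 in cdb330. Against cdb328 directly, tagged Adults had -1.65 (adjusted p = 5.33e-10). It also stayed lower on the spike-in scale, where it was one of 2 arms called lower.

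Both arms of mir-70, which lies in the gene pmp-5 (V:6665536-6665635, minus strand), fell. miR-70-3p, the main arm, had 16505 and 16026 CPM in tagged Adults and 51685, 41289.9 and 35240.4 CPM in wild type Adults (log2 -1.39 ± 0.24, adjusted p = 0.000122). Its star arm miR-70-5p* had 12.1 and 8.66 CPM in tagged Adults and 57.8, 73.8 and 73.7 CPM in wild type Adults (log2 -2.72 ± 0.30, adjusted p = 3.19e-07). For both arms, every tagged and tagged/null library lay below all 18 libraries of wild type, cdb328 and cdb330. The tagged/null libraries differed among themselves, with 5279 and 15655 CPM of miR-70-3p. On the spike-in scale miR-70-3p turned to higher in tagged Adults, at a log2 of 0.63.

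The miR-238 family (mir-238, mir-239a and mir-239b), whose members have been studied in worm lifespan and stress resistance, had all 5 of its tested arms called lower, with a median of -1.03, where 20.9% of all arms were called lower. The 5 did not keep one direction under every scaling: the median was 1.03 on the spike-in scale, where 4 arms were called higher. miR-238-3p, by far its most abundant arm, had 10256 and 10329 CPM in tagged Adults and 17544, 18516 and 17597 CPM in wild type Adults (log2 -0.80 ± 0.11, adjusted p = 7.12e-06). The groups were well apart and each was tight. miR-239a-5p had 26.2 and 28.5 CPM in tagged Adults and 53.9, 53.6 and 60.2 CPM in wild type Adults (log2 -1.03 ± 0.23), and its star arm miR-239a-3p* gave -1.34 ± 0.21. miR-239b-5p, with 0.934 and 0.845 CPM in tagged Adults and 6.74, 8.79 and 5.71 CPM in wild type Adults, rests on few reads (log2 -2.94 ± 0.72), as does miR-238-5p* (log2 -0.89 ± 0.32). miR-239b-5p is outside the rule for named arms and is given to complete the family, as chosen after its values were seen. The call of miR-238-5p* was lost without either tagged library or without wild type replicate 2.

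Among the other large falls, miR-2210-3p had 8.88 and 8.45 CPM in tagged Adults and 36.6, 29.4 and 26.98 CPM in wild type Adults (log2 -1.84 ± 0.27, adjusted p = 1.43e-05). It was also low in cdb328, with 4.69, 4.46 and 7.28 CPM. miR-253-3p had 1143 and 1109 CPM in tagged Adults and 2342, 2578 and 1936 CPM in wild type Adults (log2 -1.02 ± 0.23, adjusted p = 0.00143). It too was lower in other groups than in wild type, with log2 fold changes of -1.62 in tagged/null and -1.16 in cdb330. miR-786-3p, which acts in the intestine on the defecation rhythm, had 275 and 404 CPM in tagged Adults and 452, 726 and 801 CPM in wild type Adults (log2 -0.96 ± 0.23, adjusted p = 0.00172), and its call was lost without tagged replicate 1. Tagged/null worms had 676 and 552 CPM (log2 -0.10 over wild type, not called). miR-77-3p, one of the 8 most abundant arms of wild type Adults, had 31586 and 32322 CPM in tagged Adults and 38535, 51889.8 and 56157 CPM in wild type Adults (log2 -0.61 ± 0.13).

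miR-62-3p is the mirtron of this table, from an intron of ugt-50 (X:12692608-12692665, plus strand), and needs no Drosha cut. It had 80.8 and 89.99 CPM in tagged Adults and 142, 225 and 186 CPM in wild type Adults (log2 -1.11 ± 0.16, adjusted p = 1.31e-05). In cdb328 it stood at 516, 546 and 554 CPM, a log2 fold change of 1.54 over the same wild type libraries. The tagged strain thus lay below wild type in an arm for which cdb328 lay above it, and tagged against cdb328 gave -2.65 (adjusted p = 3.06e-13). On the spike-in scale miR-62-3p was higher in tagged than in wild type Adults, at 0.94.

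Rises were smaller in number and size. let-7-5p, which times the change from larval to adult cell fates, had 12147 and 12747 CPM in tagged Adults, against 8335, 6198 and 5679 CPM in wild type Adults (log2 0.89 ± 0.13, adjusted p = 1.51e-05). The lowest tagged library was above the highest wild type library, and tagged/null libraries had 13603 and 12723 CPM. miR-58a-3p, the most abundant of the arms called higher and a bantam-related miRNA that with its family controls body size, had 108496 and 107570.0 CPM in tagged Adults and 69714, 56406 and 61222 CPM in wild type Adults (log2 0.79 ± 0.15, adjusted p = 0.000198). Its log2 fold change was 0.28 in tagged/null (adjusted p = 0.165). miR-57-5p, which acts in posterior cell fate, had 8097 and 7951 CPM in tagged Adults and 5899.5, 4186 and 4235 CPM in wild type Adults (log2 0.75 ± 0.13, adjusted p = 7.4e-05).

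**Figure D3:**
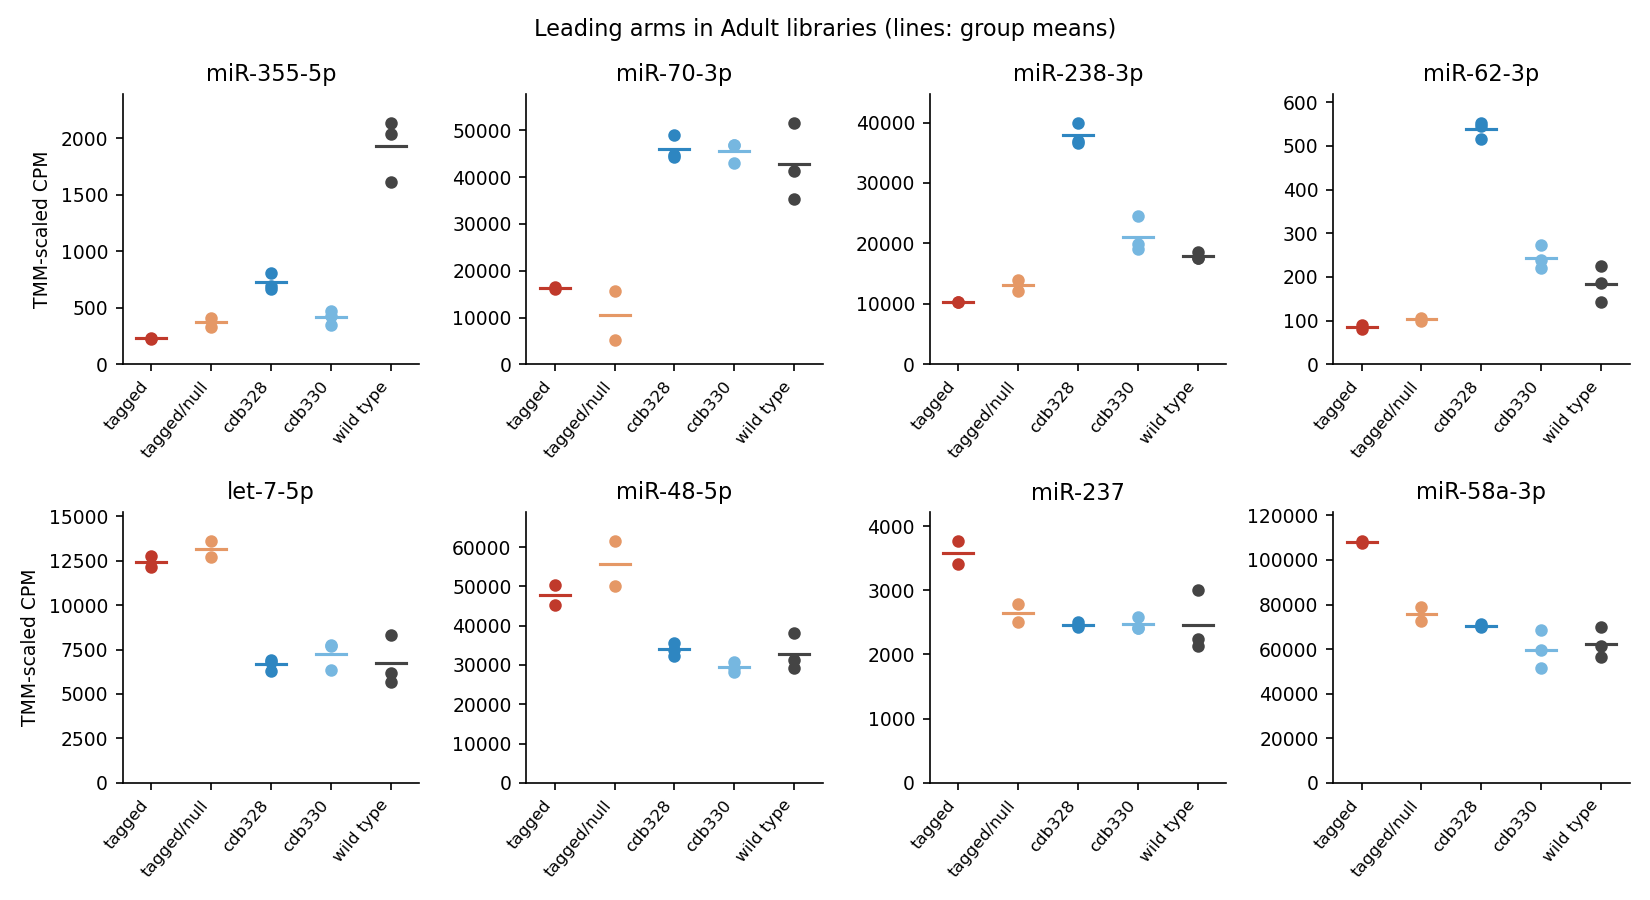
Levels of 8 arms in TMM-scaled CPM in every Adult library, with a line at the mean of each group; each panel has its own axis from 0. miR-355-5p, miR-70-3p, miR-238-3p and miR-62-3p lie lower in tagged than in wild type Adults without overlap, and let-7-5p, miR-48-5p, miR-237 and miR-58a-3p higher; on the spike-in scale, which is not drawn, miR-355-5p alone of the first 4 stays lower.

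Of the 10 largest rises 6 were star arms, which made up 83 of the 215 tested arms. miR-61-5p* had 338 and 331 CPM in tagged Adults and 144, 184 and 169 CPM in wild type Adults (log2 1.01 ± 0.16, adjusted p = 4.74e-05). miR-1829c-3p* had 80.4 and 82.8 CPM in tagged Adults and 34.7, 35.2 and 37.9 CPM in wild type Adults (log2 1.18 ± 0.19), and the closely related miR-1829b-3p* gave 1.17 ± 0.23. These near copies may share reads, so their separate values are uncertain. miR-237-3p* had 14.3 and 14.2 CPM in tagged Adults and 8.18, 4.39 and 3.11 CPM in wild type Adults (log2 1.43 ± 0.32), and miR-228-3p* had 32.7 and 29.2 CPM in tagged Adults and 11.6, 14.5 and 27.5 CPM in wild type Adults (log2 0.81 ± 0.29). The call of miR-228-3p* was lost without either tagged library and without wild type replicate 1 or 2, whereas that of miR-237-3p* was kept each time.

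The miRNAs that time larval development were next read as families. In the let-7 family, whose members mir-48, mir-84 and mir-241 act earlier in the larva than let-7, 4 of 12 tested arms were higher and 1 lower (median 0.24). These are 33.3% higher, against 11.2% of all arms, and 8.33% lower, against 20.9%. miR-48-5p had 50442 and 45134 CPM in tagged Adults and 38042, 31339 and 29299 CPM in wild type Adults (log2 0.54 ± 0.12, adjusted p = 0.000927). miR-84-5p gave 0.58 ± 0.11 and miR-795-5p 1.26 ± 0.29, with 48.1 and 61.7 CPM of miR-795-5p in tagged Adults and 35.1, 16.3 and 17.6 CPM in wild type Adults. The arm called lower was the star arm miR-241-3p* (log2 -0.48 ± 0.16). Together the family took 5.93% to 6.14% of miRNA reads in tagged Adults and 3.86% to 4.38% in wild type Adults, and in wild type L4 larvae it took 5.99% to 6.57%.

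The lin-4 family, which acts at the first larval transitions, had 2 of 3 tested arms higher (66.7%, against 11.2% of all arms) and none lower (median 0.55). miR-237 had 3767 and 3406 CPM in tagged Adults and 3009, 2236 and 2129.6 CPM in wild type Adults (log2 0.55 ± 0.12, adjusted p = 0.000927). lin-4-5p itself, with 2003 and 2167 CPM in tagged Adults and 1518, 1877 and 1847 CPM in wild type Adults, was not called (log2 0.25 ± 0.11, adjusted p = 0.0919). DESeq2's size factors, its Wald test or leaving out wild type replicate 2 each brought it past the threshold. The family's summed share was 0.474% to 0.476% in tagged Adults, 0.351% to 0.361% in wild type Adults and 0.865% to 0.930% in wild type L4 larvae. Of the wild type Adults, replicate 1 was the nearest to the tagged libraries in let-7-5p, miR-48-5p, miR-84-5p, miR-795-5p and miR-237.

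The miR-35 family, made in the germline and embryo and needed for embryonic development, had 5 of 16 arms lower (31.25%, against 20.9% of all arms) and none higher (median -0.14, and 1.93 on the spike-in scale). miR-35-3p had 92019 and 74752 CPM in tagged Adults and 97495, 70830.3 and 78129 CPM in wild type Adults, which overlap (log2 0.02 ± 0.19, 95% interval -0.38 to 0.42). miR-41-3p, from the same cluster on chromosome II, had 77.1 and 85.8 CPM in tagged Adults and 185, 233 and 244 CPM in wild type Adults (log2 -1.44 ± 0.26, adjusted p = 0.00016). The other arms called lower came from mir-36 and mir-38, with log2 values of -0.70 for miR-36-3p, -0.86 for miR-36-5p*, -0.84 for miR-38-3p and -0.91 for miR-38-5p*. miR-36-3p and miR-38-5p* were named after their values were seen, to complete the count, and the call of miR-38-5p* was lost without tagged replicate 1. Summed over the family, the share was 16.8% to 18.6% in tagged Adults and 16.4% to 18.9% in wild type Adults, and 5.86% to 7.90% in wild type L4 larvae. The tagged range of this family overlapped that of wild type Adults, while the tagged range of the let-7 family overlapped that of wild type L4 larvae. Whether the worms differed in age was not tested.

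Stage lists were also taken from the cdb330 libraries, which are no part of the comparison. Of the 34 arms at least 2-fold higher in Adults than in L4 larvae of cdb330 (15.8% of all arms), 13 were lower in tagged than in wild type Adults (38.2%, against 20.9% of all arms) and none was higher, with a median of -0.41. The 34 hold every arm of the miR-35 family, so the falls of that family are counted again among the 13, as is that of miR-355-5p. Of the 45 arms at least 2-fold lower in Adults than in L4 larvae of cdb330 (20.9%), 6 were higher and 6 lower (13.3% each, against 11.2% and 20.9% of all arms), with a median of 0.06. Both medians were positive on the spike-in scale, at 1.64 and 2.07.

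**Figure D4:**
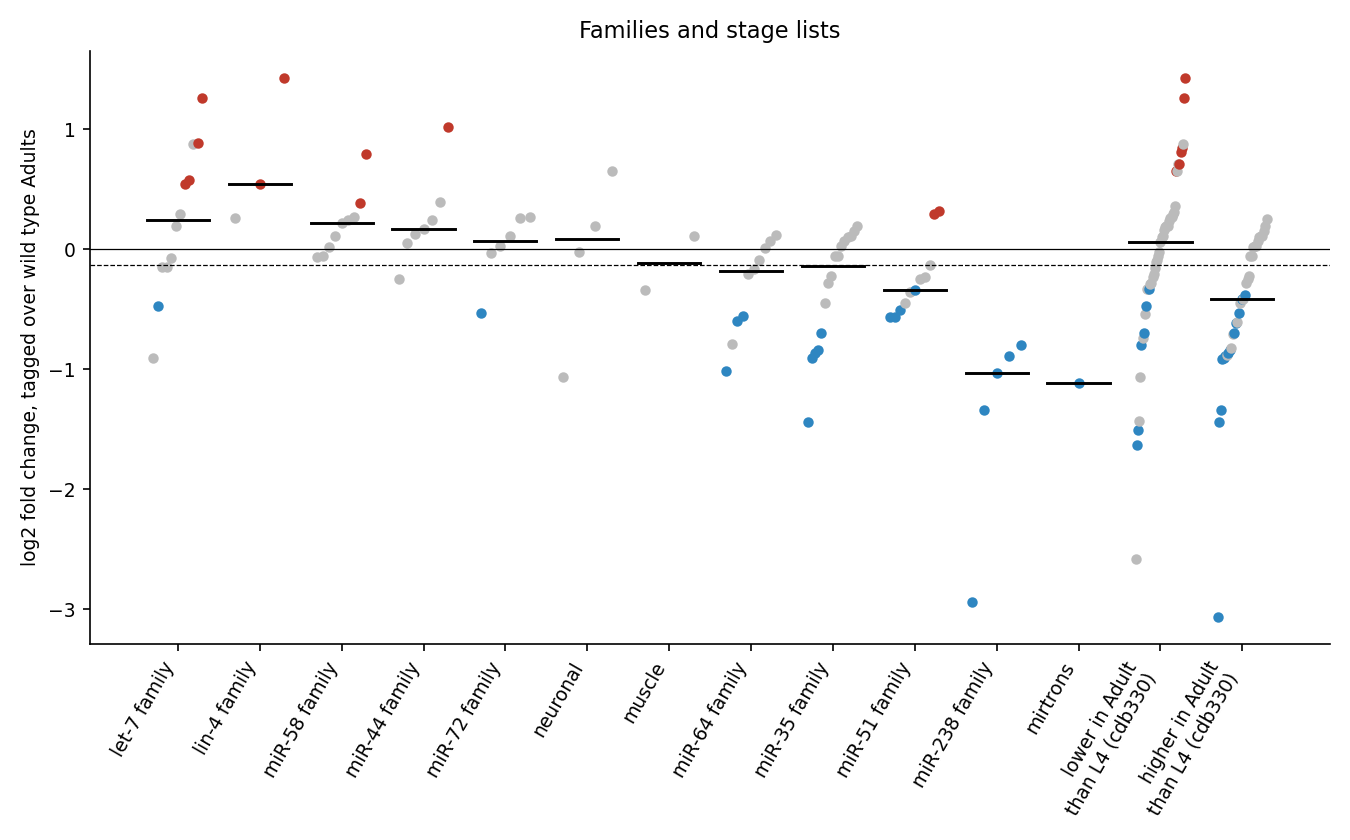
Log2 fold changes in tagged over wild type Adults for the tested arms of each family and stage list, on the TMM scale, with arms called higher in red, called lower in blue and not called in grey; black bars are list medians and the dashed line is the median of all 215 arms. The lin-4 family bar lies at 0.55, that of the miR-238 family at -1.03 and that of arms higher in Adults than in L4 larvae of cdb330 at -0.41; every list median was positive on the spike-in scale.

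A fixed list of 18 arms was taken as dependent on drsh-1. An earlier analysis of these data found them lower in all its comparisons of genotypes carrying cdb328 with their own controls. The list is no ranking by size of fall: miR-2210-3p and miR-355-5p, both lower in cdb328 than in wild type Adults, are outside it. The 18 come from 7 hairpins with both arms (mir-54, mir-71, mir-72, mir-73, mir-84, mir-86 and mir-241) and from 4 with a single arm (miR-77-5p*, miR-248-3p, miR-259-5p and miR-1817-5p), and the wild type Adult libraries took part in that choice. In tagged Adults 7 of the 18 were lower (38.9%, against 20.9% of all arms) and 2 higher (11.1%, against 11.2%). Their log2 fold changes ran from -0.70 to 0.84 with a median of -0.04 (0.03 with DESeq2's size factors), and for 16 of the 18 the 95% interval lay within 2-fold either way. The same arms had a median of -1.94 in cdb328 against these wild type libraries. On the spike-in scale none of the 18 was lower and their median was 2.02.

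miR-71-5p, a miRNA known for extending lifespan and the most read arm in wild type Adults, comes from a hairpin within the gene ppfr-1. It had 119209 and 116774 CPM in tagged Adults and 181272, 149639 and 131172 CPM in wild type Adults, against 3946, 4048 and 4351 CPM in cdb328. Tagged libraries lay just below the lowest wild type library, and far above every cdb328 library. The fall was 1.31-fold (log2 -0.38 ± 0.15, 95% interval -0.69 to -0.08, adjusted p = 0.0479), and the call was lost without either tagged library, without wild type replicate 1 or 2, and with DESeq2's size factors. The star arm miR-71-3p* had 606 and 645 CPM in tagged Adults and 545, 620.1 and 535 CPM in wild type Adults, and was not called (log2 0.14 ± 0.14).

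miR-241-5p, a let-7 sister that acts in the second larval stage, had 1131 and 1042 CPM in tagged Adults and 1341, 1118 and 969.6 CPM in wild type Adults (log2 -0.07 ± 0.16, 95% interval -0.41 to 0.26). In cdb328 it had 72.7, 75.8 and 89.5 CPM. Both arms of mir-54 were lower: miR-54-3p had 2584 and 2311 CPM in tagged Adults and 3833, 3716 and 3326 CPM in wild type Adults (log2 -0.57 ± 0.12, adjusted p = 0.000997), and miR-54-5p* gave -0.50 ± 0.17. mir-54 shares a cluster on chromosome X with mir-55 and mir-56, all in the miR-51 family, which is needed for embryonic development and for attachment of the pharynx. miR-55-3p and miR-56-3p, named after their values were seen, differed in the other direction, with log2 values of 0.32 ± 0.11 and 0.29 ± 0.10. Both of these calls were lost without tagged replicate 2, and that of miR-55-3p also without wild type replicate 2. The call of miR-54-5p* was lost without any one of the tagged libraries or without wild type replicate 2 or 3.

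Among the rest of the 18, miR-86-5p had 1024 and 1046 CPM in tagged Adults and 1295, 1579 and 1683 CPM in wild type Adults (log2 -0.55 ± 0.12, adjusted p = 0.000927). Its star arm miR-86-3p* went the other way, with 93.7 and 74.4 CPM in tagged Adults and 43.8, 43.9 and 52.9 CPM in wild type Adults (log2 0.84 ± 0.21, adjusted p = 0.00234). miR-248-3p gave -0.60 ± 0.15, miR-241-3p* -0.48 ± 0.16 and miR-77-5p* -0.70 ± 0.23. The last of these had 1208 and 1018 CPM in tagged Adults and 1990.1, 1862 and 1558 CPM in wild type Adults, the largest fall among the 18. Its call was lost without any one of the libraries other than wild type replicate 3, that of miR-241-3p* without tagged replicate 1 or wild type replicate 2, that of miR-248-3p without tagged replicate 2 and that of miR-86-3p* without tagged replicate 1. miR-84-5p was the other arm called higher, with 10962 and 10535 CPM in tagged Adults and 8607, 6573 and 6408 CPM in wild type Adults.

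The arms of mir-72 and mir-73, along with miR-84-3p*, miR-1817-5p and miR-259-5p, were not called. miR-72-5p had 28192 and 27358 CPM in tagged Adults and 30266, 25821 and 25568 CPM in wild type Adults (log2 0.03 ± 0.10, 95% interval -0.18 to 0.23), and miR-73-3p gave 0.26 ± 0.13 with an interval of 0.00 to 0.52. Both intervals leave out a 2-fold difference, but a missed threshold does not show equal levels. Without tagged replicate 1, without tagged replicate 2 or without wild type replicate 2, 3 of the 18 arms instead of 7 were called lower.

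**Figure D5:**
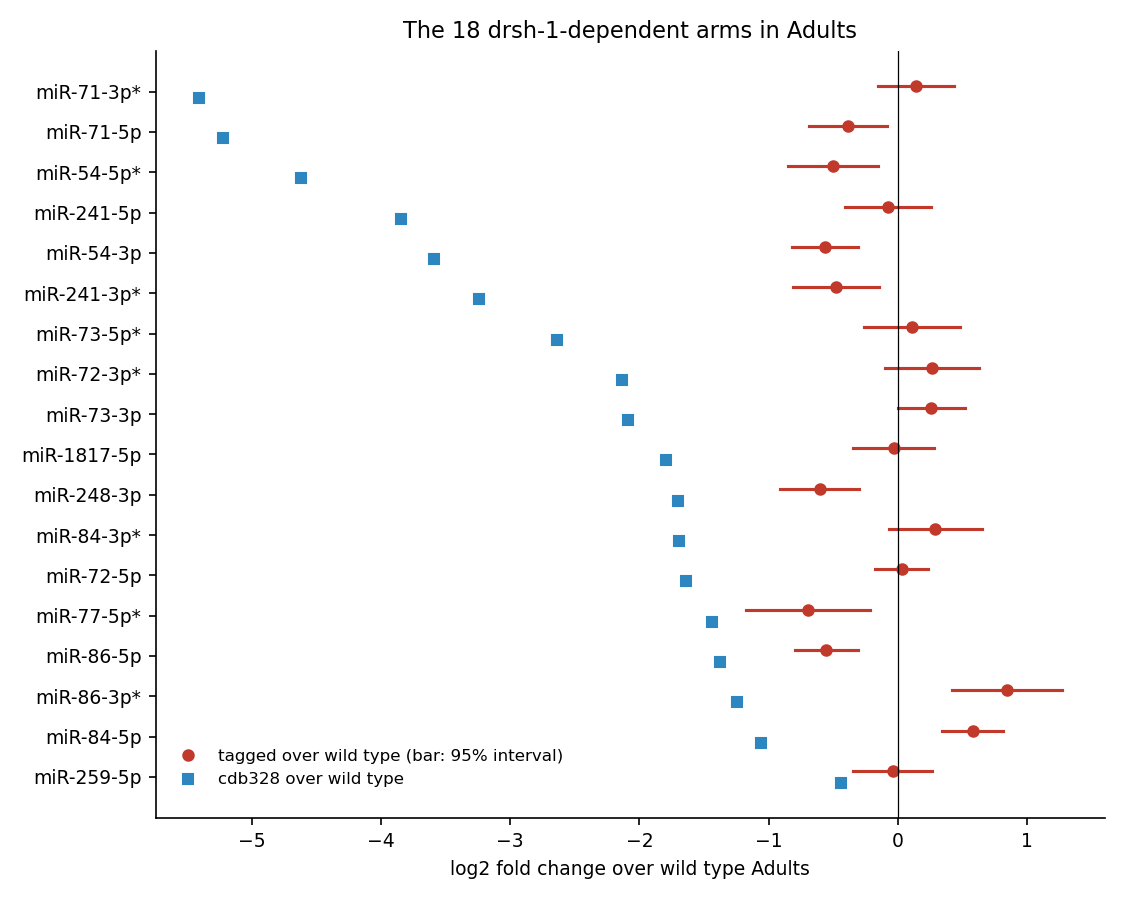
Log2 fold changes over wild type Adults for the 18 drsh-1-dependent arms on the TMM scale, as red circles with 95% intervals for tagged Adults and blue squares for cdb328 Adults, both set against the same wild type libraries. Tagged values run from -0.70 to 0.84, whereas cdb328 values have a median of -1.94.

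Tagged Adults were also set directly against cdb328 Adults, a contrast that uses no wild type library. Over all arms 71 were higher (33%) and 64 lower (29.8%) in tagged Adults. All 18 dependent arms were higher (median 2.22), which is a description, since the fall in cdb328 chose them. miR-71-5p differed by a log2 of 4.84 (adjusted p = 4.21e-19), and at the other end miR-259-5p differed by 0.40 (adjusted p = 0.0242). Summed over the 18, reads made up 14.2% to 14.3% of the total in tagged Adults, 14.7% to 15.9% in tagged/null, 1.72% to 1.78% in cdb328, 15.3% to 15.6% in cdb330 and 16.1% to 18.3% in wild type Adults. In tagged and wild type Adults most of this sum was miR-71-5p. It took 9.77% and 9.93% of reads in tagged Adults and 14.03%, 13.12% and 11.87% in wild type Adults. The sums therefore do not show a shortfall shared by the 18.

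A longer list came from L4 larvae, which share no library with the Adults. Every arm of the fixed list except miR-259-5p is also in it. All calls of the fixed list are therefore counted again below, and the longer list is no separate check of them. Of 38 arms at least 2-fold lower in cdb328 than in wild type L4 larvae (17.7% of all arms), 10 were lower in tagged than in wild type Adults (26.3%, against 20.9% of all arms) and 2 higher (5.26%, against 11.2%), with a median of 0.04. Their log2 fold changes ran from -3.06 to 0.84, and for 27 of the 38 the 95% interval lay within 2-fold either way. The 38 include miR-355-5p and miR-2210-3p, both among the 10 largest falls in tagged Adults. In the direct contrast 34 of the 38 were higher in tagged than in cdb328 Adults, where 33% of all arms were, with a median of 1.89. For the arms shared with the fixed list this is again a description. The 8 arms at least 2-fold higher in cdb328 than in wild type L4 larvae (3.72%) had 2 lower (25%, against 20.9% of all arms) and none higher in tagged Adults against wild type (median -0.12). Of the 8, 7 were lower in tagged than in cdb328 Adults, where 29.8% of all arms were.

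Single arms raised in cdb328 were mixed in tagged Adults. miR-64-5p had 31058 and 31519 CPM in tagged Adults and 29109.5, 31253 and 29280.0 CPM in wild type Adults, which overlap, against 50281, 51636 and 51114 CPM in cdb328 (tagged over wild type, log2 0.07 ± 0.11, 95% interval -0.16 to 0.29). lsy-6-3p, which sets the left-right difference of a taste neuron pair, had 5.14 and 9.29 CPM in tagged Adults and 6.74, 5.71 and 6.74 CPM in wild type Adults, against 19.4, 13.9 and 11.4 CPM in cdb328. At these few reads its interval was wide, -0.58 to 0.96 on the log2 scale. miR-1821-3p lay between its wild type and cdb328 levels without being called, with 11.4 and 10.98 CPM in tagged Adults and 8.18, 7.03 and 5.19 CPM in wild type Adults, against 20.5, 23.97 and 17.7 CPM in cdb328 (log2 0.71 ± 0.28, adjusted p = 0.0519). miR-238-3p, at 36988, 36664 and 40005 CPM in cdb328, lay on opposite sides of wild type in tagged and cdb328 Adults, like miR-62-3p.

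The remaining families are set against all arms, of which 11.2% were called higher and 20.9% lower. In the miR-58 family 22.2% of tested arms were higher, and in the miR-51 family 18.2% were higher and 36.4% lower. In the miR-58 family 2 of 9 arms were higher and none lower (median 0.21): beside miR-58a-3p this was miR-82-3p, with 61247 and 62204 CPM in tagged Adults and 56297, 45959.7 and 39663 CPM in wild type Adults (log2 0.38 ± 0.13), whose call was lost without either tagged library or wild type replicate 3. miR-80-3p gave 0.24 ± 0.12 and miR-81-3p 0.11 ± 0.13, neither called, although both were called higher in tagged/null (log2 0.55 and 0.67). Summed, the miR-58 family took 21.1% to 22.7% of reads in tagged Adults and 15.7% to 16.3% in wild type Adults, without overlap. In the miR-51 family 2 of 11 arms were higher and 4 lower (median -0.34, and 1.72 on the spike-in scale), with miR-51-5p at -0.56 ± 0.17, a call lost without either tagged library or wild type replicate 2.

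In the miR-64 family 3 of 10 arms were lower (30%, against 20.9% of all arms) and none higher (median -0.19, and 1.86 on the spike-in scale). The 3 were miR-229-5p with -0.56 ± 0.12, miR-229-3p* with -0.60 ± 0.13 and miR-66-3p*, at under 12 CPM, with -1.02 ± 0.34. The call of miR-66-3p* was lost without any one library other than wild type replicate 1. The miR-72 family had 1 of 6 arms lower (16.7%, against 20.9% of all arms), miR-74-5p* with -0.53 ± 0.19, a call lost without any one of the 5 libraries. The miR-44 family had 1 of 7 higher (14.3%, against 11.2% of all arms), miR-61-5p*. Both shares were near those of all arms. None of 4 tested arms of nervous system miRNAs (from mir-124, mir-791 and lsy-6) and neither arm of mir-1 was called. miR-1-3p, which acts in muscle and at its synapses, had 114955 and 95918 CPM in tagged Adults and 121310.0, 89925 and 81261 CPM in wild type Adults (log2 0.11 ± 0.14, 95% interval -0.18 to 0.41). miR-124-3p, a miRNA of sensory neurons, had 4.44 and 4.65 CPM in tagged Adults and 2.41, 5.71 and 5.71 CPM in wild type Adults, and its interval of -0.94 to 0.90 was nearly 2-fold either way.

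The balance between the arms of one hairpin does not depend on how libraries are scaled. Differences between single sequences remain in it, and single spike-ins shifted by log2 values from -1.69 to 0.51 between the groups. The part of such shifts in the arm ratios was not tested. For each of 86 hairpins with both arms tested, log2 of the 5p over the 3p count (with 0.5 added to each) was compared with limma. It differed between tagged and wild type Adults in 14 hairpins (16.3%), with 7 towards the 5p arm and 7 towards the 3p arm in tagged Adults. For mir-253 the log2 ratio was -4.91 and -4.82 in tagged Adults, against -6.62, -6.67 and -6.53 in wild type Adults (difference 1.74 ± 0.26, adjusted p = 9.88e-05). For mir-86 it was 3.45 and 3.81 in tagged Adults, against 4.88, 5.16 and 4.99 in wild type Adults (difference -1.38 ± 0.27, adjusted p = 0.00143). Both sets of libraries lay clear of each other, with the star arm relatively more read in tagged Adults in each case.

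mir-70 showed the opposite pattern, with ratios of -10.39 and -10.84 in tagged Adults against -9.80, -9.12 and -8.90 in wild type Adults (difference -1.34 ± 0.26, adjusted p = 0.00126), so that its star arm was relatively less read. mir-41 gave a difference of 1.499 ± 0.32 and mir-57 of 1.31 ± 0.29, both towards the 5p arm. mir-1829b gave -1.69 ± 0.38, with a wide gap between its tagged libraries (-2.92 and -1.59). The tagged/null means stood near those of tagged Adults for mir-253 (-5.31), mir-86 (3.50) and mir-1829b (-2.79), nearer to wild type for mir-70 (-9.53, against a wild type mean of -9.27) and mir-57 (9.04, against 9.80 in tagged and 8.49 in wild type), and between the groups for mir-41, whose means were 3.56 in tagged and 2.06 in wild type. Where both arms reached 100 CPM, 5 of 20 hairpins were called. With 5 instead of 0.5 added to each count 18 of the 86 were called, and in a fit of the compared groups alone 6. Without tagged replicate 1 the number was 8, and without tagged replicate 2 it was 7.

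Tagged/null worms were set against the same wild type Adults, so their values share those controls with the comparison above. There 54 arms were called (25.1%), 25 higher (11.6%) and 29 lower (13.5%), and 29 in all without tagged/null replicate 2. Side by side, let-7-5p had 0.89 ± 0.13 in tagged and 0.97 in tagged/null, miR-57-5p 0.75 ± 0.13 and 0.88, and miR-61-5p* 1.01 ± 0.16 and 1.02. miR-41-3p had -1.44 ± 0.26 in tagged and -0.49 in tagged/null, and miR-237 0.55 ± 0.12 and 0.11. Set directly against tagged Adults, tagged/null Adults had 9 arms called (4.19%), 8 higher and 1 lower, which is fewer than either group had against wild type. With 2 libraries in each group and 1 tagged/null library apart in spike-in share and miR-70-3p, a missed threshold there does not show equal levels.

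cdb330 Adults had 18 arms called against the same wild type libraries (8.37%), 6 higher and 12 lower. miR-77-5p* was lower in both, with a log2 fold change of -0.70 in tagged Adults and -1.51 in cdb330. miR-86-3p* lay on opposite sides, with 0.84 in tagged Adults and -0.94 in cdb330.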

How the data were processed

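Small RNA of whole worms was cloned with the NEBNext kit, per the labels' protocols. The table holds raw reads per miRNA arm as estimated counts made and deposited by the authors, per the file headers, with no normalization. They were rounded here because 292 values (4.64%) ended midway between 2 whole numbers. The submitters' processing notes name HTSeq without a version. Aligner, build and the division of reads between near-identical arms: not given in the sources used here. Hairpins were placed by name in the Ensembl WBcel235 annotation (136 of 138 matched).

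All 22 NEBNext libraries (1891780 to 5565918 miRNA reads) entered 1 edgeR 4.0.16 fit (R 4.3.3, limma 3.58.1) with 8 group coefficients, without spike-ins: TMM, filterByExpr (minimum count 10, total 15), glmQLFit, glmQLFTest and Benjamini-Hochberg adjustment over 215 arms at 0.05. This gave a biological coefficient of variation of 0.123. No pair of replicates agreed within sampling noise (20 pairs, lowest chi-square per degree of freedom 19.5). The F statistic gave each standard error, and its degrees of freedom the 95% intervals. Arm ratios were fitted with limma (trend; 0.5 added to each count, and 5 or arms of at least 100 CPM as alternatives). The fits were tested on simulated counts. Alternatives were DESeq2's size factors, total counts, spike-in factors (median of ratios over 10), no filter, DESeq2 1.42.0, the compared groups only, the replicate number as a block, leaving out each library and, added after the data were seen, a robust fit.

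Members and lists were chosen with earlier results of these data known. Named arms were the 10 largest rises and falls among called arms of at least 10 CPM without overlap, the 18 dependent arms, a fixed set of known miRNAs, the 8 most abundant arms, the 6 hairpins with the largest ratio changes, and the 3 list members with the smallest p. Not every arm the rule allows is printed. The 41 bias-minimized libraries were not used here.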

Additional observations from a re-analysis of the deposited data

How the results depend on the processing

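Spike-in factors gave 202 arms called between tagged and wild type Adults instead of 69 (200 instead of 24 higher, 2 instead of 45 lower), 172 instead of 54 in tagged/null, and 0 instead of 7 of the 18 dependent arms lower. The miRNA to spike-in ratio was 4.25-fold higher with spike-in size factors, against 2.86-fold from summed reads. Of the 65 arms checked, 31 changed sign on that scale: miR-70-3p 0.63, miR-239a-5p 1.03, miR-239a-3p* 0.72, miR-238-3p 1.25, miR-238-5p* 1.15, miR-62-3p 0.94, miR-2210-3p 0.20, miR-253-3p 1.01, miR-41-3p 0.62, miR-36-3p 1.36, miR-36-5p* 1.20, miR-38-3p 1.24, miR-38-5p* 1.13, miR-786-3p 1.11, miR-71-5p 1.65, miR-241-5p 1.96, miR-241-3p* 1.55, miR-54-3p 1.48, miR-54-5p* 1.55, miR-51-5p 1.48, miR-74-5p* 1.53, miR-86-5p 1.51, miR-248-3p 1.44, miR-1817-5p 2.03, miR-77-5p* 1.34, miR-77-3p 1.46, miR-259-5p 2.01, miR-124-3p 2.03, miR-229-5p 1.51, miR-229-3p* 1.45, miR-66-3p* 1.04 (log2, spike-in scale). Arm levels were not fitted on a scale of summed spike-in reads, so these sign changes hold for the spike-in size factors only. Under the other settings that were fitted no called arm of the 65 changed sign. TMM and DESeq2's size factors differed by a median log2 of 0.07.

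Leaving out 1 library gave 46 to 70 arms called (17 to 26 higher, 28 to 44 lower), 109 to 122 between tagged and cdb328 Adults, 29 to 60 between tagged/null and wild type Adults, 3 to 6 of the 18 dependent arms lower, 7 to 17 hairpins with a changed arm ratio and a miRNA to spike-in ratio of 2.69-fold to 2.97-fold. In a fit of the compared groups alone 6 hairpins were called, with both arms at 100 CPM 5, and with 5 added to each count 18. The replicate number as a block gave 69 arms (25 higher, 44 lower), of which 68 were among the 69, and 13 hairpins. Same-numbered tagged and wild type libraries correlated at 0.19 and 0.10 in their deviations from the group means, and with 2 such pairs the numbers were not taken to pair the samples. Of the 69 called arms, 63 kept their call with DESeq2's size factors, 65 with total counts, 59 without the filter, 62 with DESeq2's Wald test, 52 of 67 tested with the compared groups alone and 69 with the robust fit. Of the called arms named here, miR-71-5p, miR-241-3p* and miR-74-5p* lost their call with DESeq2's size factors, miR-71-5p, miR-74-5p*, miR-238-5p* and miR-66-3p* with its Wald test, and miR-71-5p, miR-238-5p*, miR-55-3p and miR-56-3p without the filter. With the compared groups alone miR-71-5p, miR-238-5p*, miR-66-3p*, miR-241-3p*, miR-38-5p* and miR-228-3p* lost theirs, and with total counts miR-228-3p*.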

Other observations

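Some arms in the tagged and tagged/null libraries lay outside the range of all 18 libraries of wild type, cdb328 and cdb330, at both stages. All 4 libraries lay below that range for 11 of the 215 tested arms (miR-62-3p, miR-70-3p, miR-70-5p*, miR-52-5p, miR-79-3p, miR-85-3p, miR-137-3p, miR-232-3p, miR-236-3p, miR-255-3p and miR-47-5p*). They lay above it for 8 of the 215 (miR-48-5p, miR-84-5p, miR-56-3p, miR-58a-3p, miR-82-3p, miR-61-5p*, miR-72-3p* and miR-73-3p). These arms were listed after their values were seen. The same 4 libraries also lay outside the 18 for 5 of the 10 plant spike-ins, and the part of the spike-in difference in these arms was not tested.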
